A study of Mus musculus with 22 samples.

Results

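The MHC class II antigen presentation genes H2-Aa, H2-Ab1, H2-Eb1, Cd74, H2-DMa, H2-DMb1, and Ciita, were followed through 22 mouse kidneys. They were chosen by name as 7 of the 32858 genes in the count table, and all 7 were among the 17131 genes with enough reads to be tested. Cisplatin, a platinum chemotherapeutic that injures the kidney, lowered 6 of them, where 35.9% of all tested genes were lower. The 3 classical chains and Cd74 fell to between 0.174 and 0.225 of their levels in vehicle-treated mice. Adding KW6002 (istradefylline), an adenosine receptor antagonist, raised all 7 above their levels under cisplatin alone, where 28.6% of all tested genes were higher. Ciita, the regulator of the group, returned to the range seen without cisplatin or above it.

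MHC class II molecules are pairs of an alpha and a beta chain that display peptides from the endosomal pathway to CD4+ T cells. Newly made pairs are bound by the invariant chain, encoded by Cd74, which fills the groove and guides the complex to endosomes. There proteases degrade the invariant chain, and the H2-DM heterodimer exchanges its last fragment for other peptides. Transcription of the genes for the class II chains, the invariant chain, and H2-DM depends largely on CIITA, a coactivator that binds no DNA itself. CIITA is recruited by the RFX, CREB, and NF-Y factors sitting on conserved X and Y boxes of class II promoters. In the kidney, class II molecules are carried mainly by dendritic cells, macrophages, and B cells, and tubular epithelium can acquire them under interferon gamma.

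All mice were 8- to 10-week-old C57Bl6/J males. Vehicle-treated mice (n = 5) received the carrier of DMSO, cremophor, and saline. KW6002 mice (n = 6) received the drug at 3 mg/kg by daily intraperitoneal injection from day -5 to day 7. Cisplatin mice (n = 5) received 6 daily intraperitoneal injections of 3 mg/kg from day 0 and were killed 72 hours after the last, and the remaining mice (n = 6) received both drugs on these schedules. Each mouse gave 1 kidney library, so p-values measure the spread between mice. Whole kidney was sequenced, in which fewer cells of a type and less RNA per cell cannot be told apart.

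Libraries held 26471762 to 40510754 counts. The tissue label was borne out by nephron markers: summed proximal tubule markers reached 14032 to 15073 CPM (read counts scaled to a common library size) in vehicle kidneys, and markers of the thick ascending limb, collecting duct, and podocytes were present in every group. One kidney given both drugs (replicate 6) also held adrenal RNA, with 67.9 summed CPM of adrenal markers against at most 3.13 in every other library. Without this kidney no call on the 7 genes changed, and the log2 fold changes of cisplatin plus KW6002 against cisplatin were 0.69 for H2-DMb1, 1.13 for H2-Aa, 1.24 for Cd74, and 3.35 for Ciita. By the labels, libraries carry a number either in the 300s or in the 500s, and each mouse is named here by the number of its library. Both series occur in the vehicle (3 and 2 mice) and KW6002 (3 and 3 mice) groups, whereas all mice given cisplatin, with or without KW6002, are numbered in the 500s. The labels do not say what the number or its series means.

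The X and Y boxes that place CIITA on its targets could be read in RefSeq promoter windows (GRCm38.p6, 250 bases before to 50 after a gene start) for 3 of the 7 genes, H2-Aa, H2-Eb1, and H2-DMb1. The windows of H2-DMa lacked the pair, and no window was used here for H2-Ab1, Cd74, or Ciita. Capitals mark the letters searched, GNAAC for the core of the X box and GATTGG for that of the Y box, 10 to 40 bases apart and on the strand of the gene. Both strings were settled after the class II windows had been read. The first pair below are members that fell together under cisplatin, as did H2-Ob of the second pair. The others are class II beta chain genes that carry the same elements. They either did not pass for the addition of KW6002 or were too low to be tested. Each is printed 5′ to 3′ on the strand of its gene, at chr17:34287861-34287914 (minus strand), chr17:34305766-34305818, chr17:34238808-34238858, and chr17:34325533-34325585 (plus strand).
H2-Aa: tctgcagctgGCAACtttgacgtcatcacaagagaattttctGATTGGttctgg
H2-Eb1: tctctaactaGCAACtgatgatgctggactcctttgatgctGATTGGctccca
H2-Ob: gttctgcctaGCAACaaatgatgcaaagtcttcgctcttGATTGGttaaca
H2-Eb2: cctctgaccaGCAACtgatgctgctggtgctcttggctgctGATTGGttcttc

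In these 4 promoters the stretch between both boxes measured 24 to 27 bases, and the Y box ended 44 to 96 bases before the RefSeq gene start. H2-DMb1 carried GTAAC in place of GCAAC, also with 27 bases between the boxes. H2-Oa, not printed above, held the pair with 27 bases between and did not pass for the addition of KW6002. The window of H2-DMb2 lacked the pair, and that gene fell under cisplatin and rose when KW6002 was added. Among 32851 promoter windows of the same length, 0.865% held such a pair on the gene strand and 1.69% on either strand. GATTGG alone was found in 16.1% and GNAAC alone in 84.8%. The match is one of letters, and binding was not measured.

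H2-Aa encodes the alpha chain of the I-A molecule, the class II molecule that C57BL/6 mice display. It lies on chromosome 17 from 34282744 to 34287823 of mm10, on the minus strand. Its level, in CPM with library sizes scaled by the trimmed mean of M-values (TMM), was 102, 91.4, 91.8, 67.2, and 61.4 in the 5 vehicle kidneys, and 9.51, 14.4, 15.0, 15.0, and 20.4 in the 5 cisplatin kidneys. With both drugs it ran from 24.1 through a median of 29.1 to 53.5, and with KW6002 alone from 74.9 through 90.3 to 109. The cisplatin kidneys all lay below every other kidney, and the cotreated kidneys filled the gap between cisplatin and vehicle without touching either. The log2 fold change was -2.48 ± 0.21 (SE) for cisplatin against vehicle (adjusted p = 3.08e-10, edgeR quasi-likelihood F test with Benjamini-Hochberg adjustment over all 17131 genes, used throughout). It was 1.18 ± 0.20 for cisplatin plus KW6002 against cisplatin (adjusted p = 2.40e-05).

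H2-Ab1, at 34257689 to 34269419 of chromosome 17 (plus strand), encodes the beta chain that pairs with the product of H2-Aa. Vehicle kidneys held 86.2, 68.7, 69.0, 59.8, and 54.6 CPM of it. Cisplatin kidneys held 8.68, 13.6, 12.1, 12.7, and 29.0 CPM, the last value standing above the rest. Cotreated kidneys ranged from 27.7 through 40.1 to 69.3 CPM, so that cisplatin replicate 5 overlapped the lowest of them, and KW6002 kidneys from 60.2 through 78.1 to 90.3 CPM. H2-Ab1 fell by 2.15 ± 0.25 on the log2 scale under cisplatin (adjusted p = 8.88e-08) and rose by 1.50 ± 0.24 when KW6002 was added (adjusted p = 1.85e-05).

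H2-Eb1 encodes the beta chain of the I-E molecule, whose alpha chain gene is defective in C57BL/6 mice, so that its RNA is made without a surface product. It lies at 34305867 to 34316674 of chromosome 17 (plus strand) and overlaps Gm20513 on the other strand. It was measured at 76.8, 65.1, 70.5, 53.9, and 44.3 CPM in vehicle kidneys and at 6.47, 10.7, 10.2, 11.6, and 14.9 CPM in cisplatin kidneys. Cotreated kidneys held 20.5 to 46.4 CPM (median 25.8), and KW6002 kidneys 56.7 to 86.3 CPM (median 70.9). All cotreated kidneys lay above all cisplatin kidneys, and the highest of them passed the lowest vehicle kidney. The log2 fold changes were -2.53 ± 0.21 under cisplatin (adjusted p = 4.43e-10) and 1.41 ± 0.21 for the addition of KW6002 (adjusted p = 4.52e-06).

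Cd74, the invariant chain gene on chromosome 18 (60803848 to 60812652, plus strand), had the highest level of the 7 per length of transcript. It read 184, 143, 143, 113, and 103 CPM in vehicle kidneys and 18.8, 29.9, 28.1, 27.7, and 38.2 CPM in cisplatin kidneys. The cotreated range was 50.9 to 103 CPM with a median of 62.3, and the KW6002 range 124 to 194 CPM with a median of 159. The separation followed that of the classical chains, with no cisplatin kidney reaching any kidney of another group and the highest cotreated kidney level with the lowest vehicle kidney. Cisplatin changed it by -2.27 ± 0.20 (log2, adjusted p = 6.17e-10) and the addition of KW6002 by 1.30 ± 0.19 (adjusted p = 3.57e-06).

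H2-DMa and H2-DMb1 encode the heterodimer that edits class II peptides. H2-DMa, at 34119541 to 34139101 of chromosome 17, shares its annotated span with CR974462.3 on the same strand and with Brd2 on the other. Whether counting used strand is not given in the sources used here. The gene was at 9.23, 8.62, 8.57, 5.78, and 5.99 CPM in vehicle kidneys and at 4.18, 3.59, 4.16, 3.61, and 6.48 CPM in cisplatin kidneys, of which only replicate 5 reached into the vehicle range. Cotreated kidneys held 6.52 to 14.6 CPM (median 10.1) and KW6002 kidneys 7.25 to 8.82 CPM (median 7.71). H2-DMa fell by 0.79 ± 0.19 on the log2 scale under cisplatin (adjusted p = 6.94e-04) and rose by 1.19 ± 0.18 with KW6002 (adjusted p = 7.42e-06). Brd2, the bromodomain gene on the opposite strand, had a log2 fold change of -0.015 under cisplatin (adjusted p = 0.833) and of 0.35 for the addition of KW6002 (adjusted p = 2.69e-05).

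H2-DMb1 (chromosome 17, 34153072 to 34160230, plus strand) stood apart from its partner. Its levels were 14.1, 9.62, 12.8, 8.81, and 8.40 CPM in vehicle kidneys and 8.74, 9.44, 7.73, 8.11, and 17.1 CPM in cisplatin kidneys, which overlapped. The log2 fold change was -0.074 ± 0.19 (adjusted p = 0.739), a fold of 0.950 with a 95% interval of 0.738 to 1.22. This value depended on the kidneys used. Without cisplatin replicate 5 the log2 fold change was -0.34 (adjusted p = 0.0456). It was 0.042 without vehicle replicate 1 (adjusted p = 0.859) and 0.24 with only mice numbered in the 500s (adjusted p = 0.415). With both drugs the gene ranged from 12.5 through 15.5 to 19.7 CPM, against 10.4 through 11.9 to 13.4 CPM with KW6002 alone, and it was 0.66 ± 0.18 higher than under cisplatin alone (log2, adjusted p = 0.00305). H2-DMb1 and its neighbour H2-DMb2 are close paralogs, and reads that fit both equally would have been lost from uniquely aligned reads.

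Ciita, on chromosome 16 at 10480059 to 10528418 (plus strand, overlapped by Dexi on the other), was the member with the widest swing. It was at 10.7, 5.98, 6.75, 4.65, and 3.94 CPM in vehicle kidneys. The cisplatin kidneys held 0.533, 0.452, 0.826, 0.910, and 1.98 CPM, which were 18 to 70 counts per library. Cotreated kidneys held 6.61 to 13.7 CPM with a median of 9.31, which overlapped the vehicle kidneys and the KW6002 kidneys at 6.96 to 8.36 CPM (median 7.43) and reached above both. Every cisplatin kidney lay below every other kidney. The log2 fold change was -2.78 ± 0.31 for cisplatin (adjusted p = 3.64e-08) and 3.35 ± 0.30 for the addition of KW6002 (adjusted p = 4.71e-09), a 10.2-fold difference with a 95% interval of 6.76 to 15.3. Dexi, which runs through the locus on the other strand, moved by only -0.23 (adjusted p = 0.0069) and 0.24 (adjusted p = 0.00496).

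**Figure D1:**
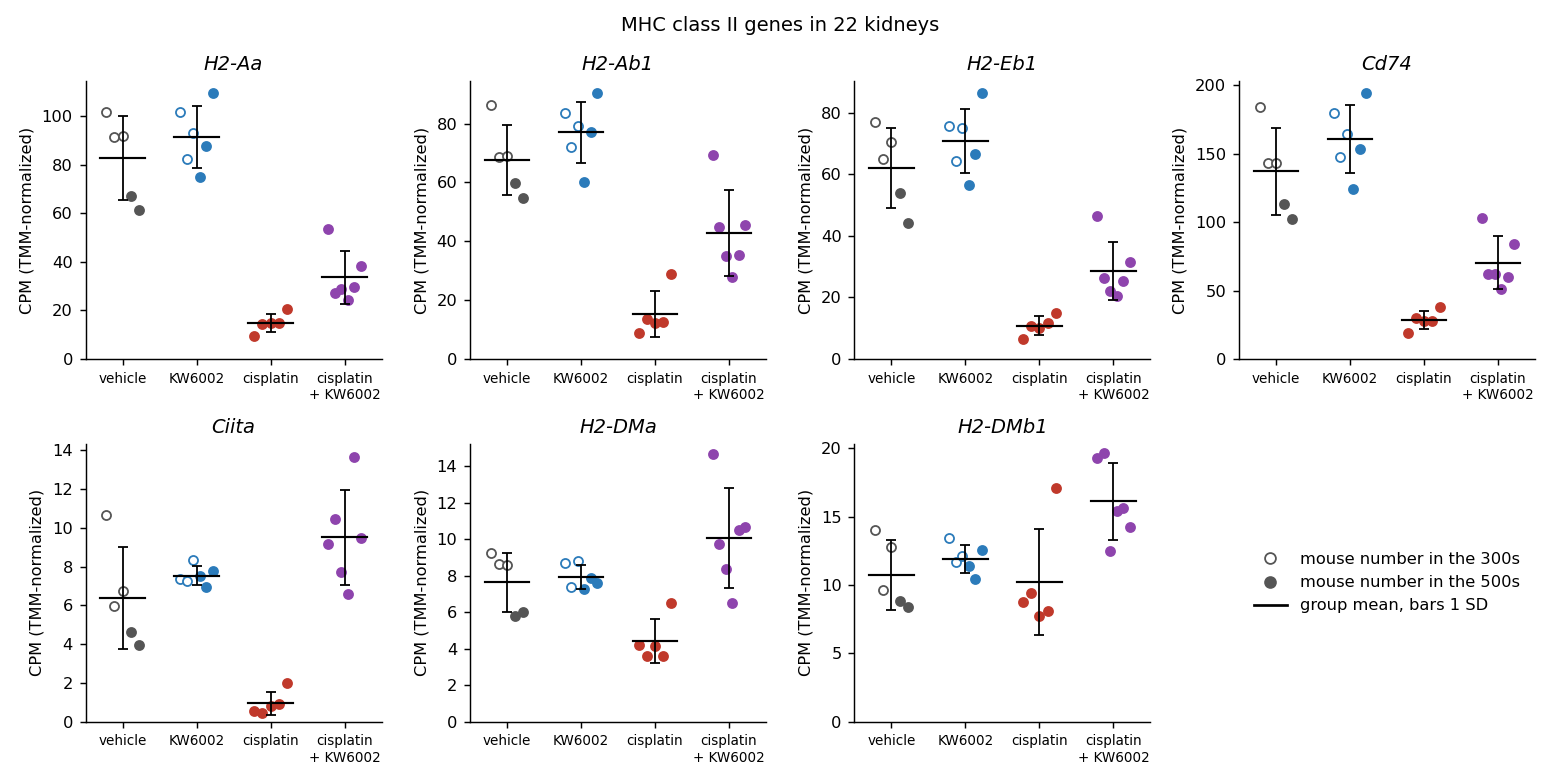
TMM-scaled CPM (vertical axes, linear from 0) of the 7 MHC class II genes in each of 22 kidneys, by treatment; open points are mice numbered in the 300s, filled points those in the 500s, lines the group mean and bars 1 SD. The 5 cisplatin kidneys lie below all others for H2-Aa, H2-Eb1, Cd74, and Ciita, cisplatin replicate 5 is the highest of its group in all 7 panels, and Ciita in the cotreated kidneys (6.61 to 13.7 CPM) overlaps the groups without cisplatin and reaches above them.

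As a group, 6 of 7 genes were lower in cisplatin than in vehicle kidneys at an adjusted p below 0.05, a side on which 35.9% of all tested genes lay and 34.6% on the other. With library size as the only scaling these shares were 24.8% and 47.6%, and 6 of 7 members were still lower. At the stricter thresholds the study used, an adjusted p below 0.01 with a change beyond 1 on the log2 scale, 5 of 7 were lower, against 12.1% of all genes. In 5 of 7 the groups did not overlap, against 27.9% of all genes with every cisplatin kidney below every vehicle kidney. The median log2 fold change of the 7 was -2.27, beside -0.012 over all genes. The log2 fold changes of the 3 classical chains, Cd74, and Ciita lay between -2.15 and -2.78, and those of the peptide editors were -0.79 and -0.074.

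KW6002 added to cisplatin raised 7 of 7 genes at an adjusted p below 0.05, where 28.6% of all genes were higher. Of these, 6 also passed the study's thresholds, against 4.65% of all genes, and 5 did not overlap, against 19.3%. The median log2 fold change was 1.30, beside 0.0050 over all genes. This comparison and the preceding one share the 5 cisplatin kidneys, so that a low value in any of them would enter both.

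Against vehicle, the classical chains and Cd74 were still low in the cotreated kidneys, and H2-DMb1 was high. H2-Aa (-1.30, adjusted p = 2.99e-06), H2-Eb1 (-1.12, adjusted p = 3.13e-05), Cd74 (-0.96, adjusted p = 7.88e-05), and H2-Ab1 (-0.66, adjusted p = 0.0171) were lower on the log2 scale. H2-DMb1 was higher (0.59, adjusted p = 0.00715). H2-DMa (0.40, adjusted p = 0.055) and Ciita (0.57, adjusted p = 0.0561) did not pass, and their folds had 95% intervals of 1.04 to 1.67 and 1.05 to 2.09. Thus 4 of 7 were lower and 1 higher, where 29.9% of all genes were lower and 29.8% higher (20.6% and 43.2% with library size as the only scaling, when 3 members were lower and 3 higher), and only H2-Aa did not overlap, on a side with 18.5% of all genes. Some of these readings rested on the vehicle mice used. Without vehicle replicate 1, the highest vehicle kidney for all 7 genes, H2-Ab1 no longer passed (-0.55, adjusted p = 0.0544) and H2-DMa (0.48, adjusted p = 0.035) and Ciita (0.84, adjusted p = 0.00617) did. Omission of cisplatin replicate 5 or of cotreated replicates 3 or 4 also brought H2-DMa (adjusted p = 0.0142 to 0.0411) and Ciita (adjusted p = 0.0217 to 0.0491) below 0.05, as did omission of cisplatin replicate 2 for Ciita (adjusted p = 0.0463).

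KW6002 alone left the 7 genes without a detected change. Their log2 fold changes against vehicle lay between 0.055 and 0.23, and adjusted p-values between 0.655 and 0.937. None passed with an unadjusted p below 0.05 either, and 0.0175% of all genes were called higher and 0.00% lower. The 95% intervals of the fold ran from 0.817 to 1.32 for H2-DMa, the narrowest on the upper side, to 0.832 to 1.66 for Ciita. DESeq2 also called 0 of 7. With only mice numbered in the 500s, 2 of them in the vehicle group, the log2 fold changes ran from 0.36 (H2-DMa) to 0.79 (Ciita). No member passed in that fit either (adjusted p = 0.481 to 0.774).

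The effect of KW6002 with cisplatin exceeded its effect without cisplatin in 6 of 7 genes by the test of the difference itself, where 22.8% of all genes were so called and 19.9% the other way (17.8% and 24.0% with library size as the only scaling, again with 6 of 7 members). The difference in log2 fold change was 3.12 ± 0.39 for Ciita (adjusted p = 1.57e-06), and 1.03 to 1.31 for H2-Aa, H2-Ab1, H2-Eb1, H2-DMa, and Cd74 (adjusted p = 8.93e-04 to 0.00335). For H2-DMb1 it was 0.51 ± 0.25 (adjusted p = 0.107). Without cisplatin replicate 5 the H2-DMb1 difference became 0.77 (adjusted p = 0.00247).

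**Figure D2:**
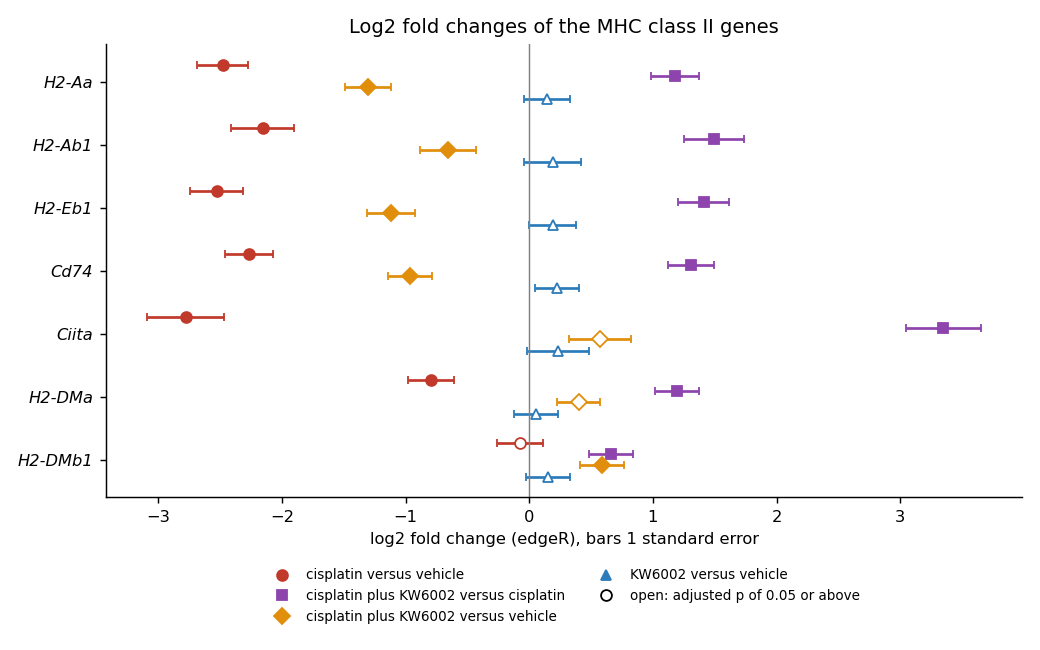
Log2 fold changes (horizontal axis) of the 7 genes in 4 comparisons that share control groups, with bars of 1 SE; filled symbols passed an adjusted p below 0.05. Cisplatin against vehicle lies between -2.15 and -2.78 for H2-Aa, H2-Ab1, H2-Eb1, Cd74, and Ciita. All KW6002 against vehicle values are open, and H2-DMb1 is the member that did not pass under cisplatin.

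Within the vehicle group, both mice numbered in the 500s lay below all 3 numbered in the 300s for each of the 7 genes. For H2-Aa these were 61.4 and 67.2 CPM against 91.4 to 102 CPM, and for Ciita 3.94 and 4.65 CPM against 5.98 to 10.7 CPM. In the KW6002 group the series overlapped for H2-Aa (74.9 to 109 CPM in the 500s, 82.3 to 102 CPM in the 300s). With only mice numbered in the 500s, 2 of them in the vehicle group, cisplatin still lowered 5 of 7 genes, where 31.7% of all genes were lower in that fit, among them H2-Aa (-2.12, adjusted p = 8.59e-07) and Ciita (-2.21, adjusted p = 3.51e-05), but not H2-DMa (-0.43, adjusted p = 0.145). All 7 were again higher with both drugs than with cisplatin alone, as were 28.9% of all genes. The difference between the KW6002 effects then passed for Ciita alone (2.57, adjusted p = 3.68e-04), and for 18.3% of all genes, while the other members lay between 0.25 and 1.09 (adjusted p = 0.0532 to 0.579). In the same mice H2-DMa (0.77, adjusted p = 0.0153) and Ciita (1.15, adjusted p = 0.00828) were higher with both drugs than with vehicle.

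Per length of transcript, in RPKM (CPM divided by the exon length in kilobases), the group means kept 1 order in the vehicle and KW6002 groups. In vehicle kidneys Cd74 led with 81.7 ± 18.9 RPKM (mean ± SD, n = 5), followed by H2-Eb1 with 32.0 ± 6.71, H2-Ab1 with 26.3 ± 4.68, and H2-Aa with 21.8 ± 4.58 RPKM. Among these chains, H2-Eb1 and H2-Ab1, and H2-Ab1 and H2-Aa, differed by less than the sum of their SDs. H2-DMb1 (6.38 ± 1.50 RPKM), H2-DMa (2.21 ± 0.47 RPKM), and Ciita (0.671 ± 0.277 RPKM) came below, each apart from its neighbours. The KW6002 means, in the same order, were 95.6, 36.4, 30.0, 24.1, 7.09, 2.30, and 0.790 RPKM. Under cisplatin H2-DMb1, at 6.08 ± 2.31 RPKM, stood level with H2-Ab1 (5.93 ± 3.08), H2-Eb1 (5.55 ± 1.56), and H2-Aa (3.91 ± 1.02 RPKM), while Cd74 remained highest at 17.0 ± 4.12 RPKM and Ciita lowest at 0.0986 ± 0.0643 RPKM. With both drugs Cd74 (42.0 ± 11.5 RPKM) led H2-Ab1 (16.7 ± 5.67), H2-Eb1 (14.7 ± 4.87), H2-DMb1 (9.59 ± 1.68), and H2-Aa (8.85 ± 2.86), of which neighbours after Cd74 again differed by less than the sum of their SDs, and H2-DMa (2.92 ± 0.79) and Ciita (0.998 ± 0.257 RPKM) came last.

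Ratios within a kidney, which do not depend on library scaling, showed that the members had not moved as 1 block. They were chosen with the levels in view and are given without a test. H2-Ab1 per H2-Aa, the ratio of the paired beta and alpha chains, was 0.751 to 0.889 in vehicle and 0.803 to 0.880 in KW6002 kidneys. It was 0.808 to 0.946 in 4 cisplatin kidneys and 1.42 in replicate 5, and 1.15 to 1.65 in all 6 cotreated kidneys, none of which overlapped vehicle. Ciita per 100 Cd74 was 4.53 ± 0.79 in vehicle kidneys (mean ± SD, n = 5), 3.15 ± 1.32 under cisplatin, and 14.2 ± 4.92 with both drugs, where the lowest kidney (8.90) exceeded the highest vehicle kidney (5.82). H2-DMb1 per H2-Aa rose from 0.105 to 0.139 in vehicle to 0.516 to 0.919 in cisplatin kidneys and was 0.360 to 0.723 with both drugs. H2-Eb1 per H2-Aa was 0.752 ± 0.036 in vehicle, 0.723 ± 0.042 under cisplatin, and 0.854 ± 0.066 with both drugs. Cd74 per H2-Aa went from 1.66 ± 0.10 in vehicle to 1.93 ± 0.09 under cisplatin and 2.12 ± 0.13 with both drugs.

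**Figure D3:**
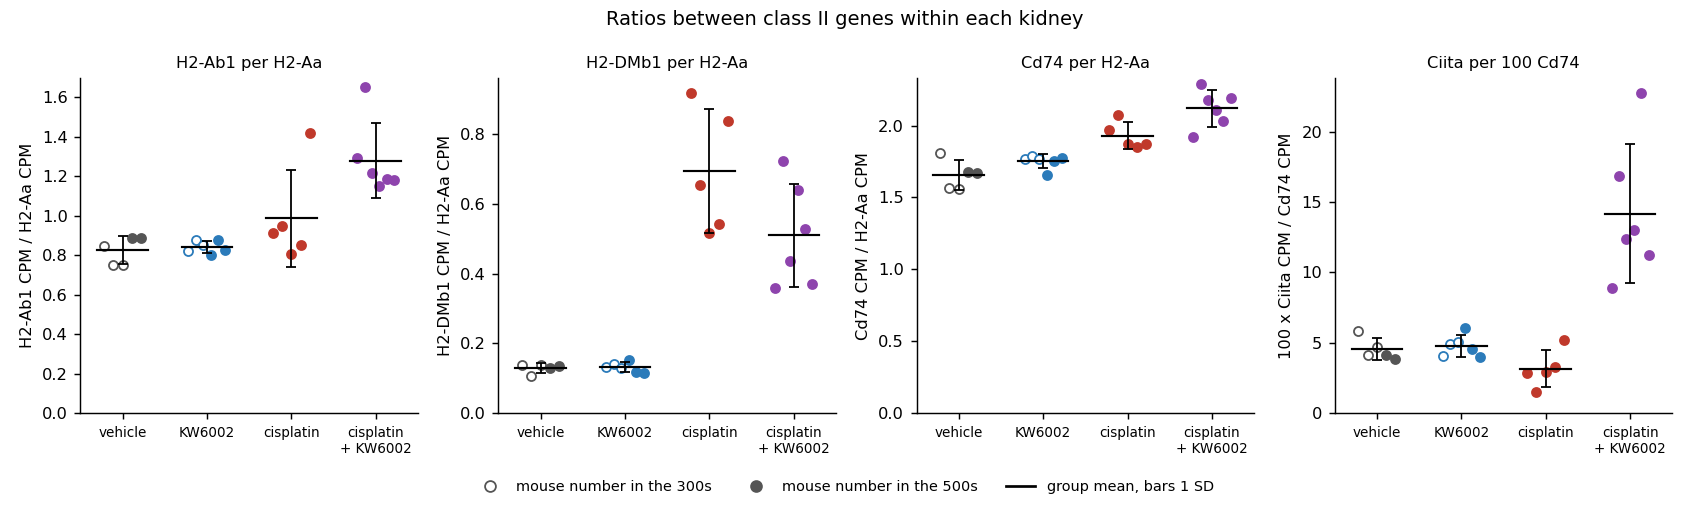
Ratios of CPM between class II genes within each of 22 kidneys (vertical axes, linear from 0) by treatment, with the group mean and 1 SD; open points are mice numbered in the 300s. H2-Ab1 per H2-Aa reaches 1.15 to 1.65 in the cotreated kidneys against 0.751 to 0.889 with vehicle, H2-DMb1 per H2-Aa is higher in both cisplatin groups than in either group without cisplatin, and Ciita per 100 Cd74 is highest with both drugs (8.90 to 22.7).

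Among the other class II chains, 4 of 6 listed symbols were in the table and 3 were tested. All 3 fell under cisplatin, where 35.9% of all genes fell. They were H2-Ob (-2.26 ± 0.34, log2, adjusted p = 2.78e-06) and H2-Oa (-1.09 ± 0.36, adjusted p = 0.0103), which form the H2-DO inhibitor of peptide editing found mainly in B cells, and H2-DMb2 (-1.02 ± 0.36, adjusted p = 0.0149). Only H2-DMb2 was higher when KW6002 was added (1.84 ± 0.33, adjusted p = 5.56e-05), where 28.6% of all genes were higher. H2-Ob had 30 to 76 counts in vehicle, 10 to 17 in cisplatin, and 5 to 27 in cotreated kidneys, a log2 fold change of 0.094 ± 0.37 for the addition of KW6002 (adjusted p = 0.845). H2-Oa had 10 to 29, 4 to 19, and 1 to 7 counts in the same groups, with -0.76 ± 0.41 for that addition (adjusted p = 0.121). Both stayed below vehicle in the cotreated kidneys (H2-Ob -2.17, adjusted p = 4.49e-06, and H2-Oa -1.85, adjusted p = 2.42e-04). H2-Eb2, whose promoter holds the same boxes, had at most 6 counts in any kidney and was not tested.

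The factors that recruit CIITA to the X and Y boxes did not move together. Of 7 genes listed, 2 rose and 1 fell under cisplatin, a comparison in which 34.6% of all genes rose. When KW6002 was added 2 rose and 4 fell, where 27.2% of all genes fell. Rfx5, the DNA-binding subunit of RFX, was 0.48 ± 0.09 higher under cisplatin (log2, adjusted p = 6.19e-05) and 0.34 ± 0.09 lower with KW6002 added (adjusted p = 0.00186). Rfxank (-0.055, adjusted p = 0.486, then 0.14, adjusted p = 0.0629) passed in neither comparison, and Rfxap only in the second (-0.11, adjusted p = 0.445, then 0.39, adjusted p = 0.00721). Among the NF-Y subunits that bind the Y box, Nfyc fell under cisplatin by 1.12 ± 0.06 (log2, adjusted p = 1.77e-13) and rose by 0.58 ± 0.06 with KW6002 (adjusted p = 2.08e-08), whereas Nfyb moved by 0.53 ± 0.05 (adjusted p = 3.63e-09) and -0.22 ± 0.05 (adjusted p = 5.81e-04).

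Among endosomal enzymes that prepare peptides and degrade the invariant chain, 3 of 8 rose and 2 fell under cisplatin, near the shares of all genes (34.6% and 35.9%). Ctsd, cathepsin D, rose by 1.51 ± 0.10 (log2, adjusted p = 2.84e-12) and Ifi30, the lysosomal thiol reductase, by 0.69 ± 0.07 (adjusted p = 3.67e-09), while Ctsh, cathepsin H, fell by 0.63 ± 0.05 (adjusted p = 3.29e-10). Ctss, the cathepsin that cleaves the invariant chain in dendritic cells and B cells, was measured at 491 to 1815 counts in vehicle and 1415 to 2113 in cisplatin kidneys (0.47 ± 0.32, adjusted p = 0.201). KW6002 added to cisplatin raised 2 of the 8 (28.6% of all genes rose), Lgmn, the asparagine endopeptidase (0.68 ± 0.08, adjusted p = 4.16e-07), and Ctsh (0.26 ± 0.05, adjusted p = 1.29e-04), and lowered 4 (27.2% of all genes fell), Ctsd, Ifi30, Ctsb, and Ctsl (-0.20 to -0.65).

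Genes that act on class II molecules at the surface, or beside them in T cell activation, were called at about the shares of all genes under cisplatin, with 2 of 7 higher (34.6% of all genes) and 3 of 7 lower (35.9%). Those higher were Cd80, a ligand of CD28 (2.22 ± 0.40, log2, adjusted p = 3.73e-05) and Icam1, the adhesion molecule (1.77 ± 0.14, adjusted p = 1.83e-10). Those lower were Cd83 (-1.41 ± 0.29, adjusted p = 1.52e-04), which counteracts class II ubiquitination, and the ubiquitin ligase genes March1 (-0.87 ± 0.16, adjusted p = 4.54e-05), which acts on class II itself, and March8 (-0.62 ± 0.05, adjusted p = 6.44e-11). With KW6002 added (28.6% of all genes higher, 27.2% lower), March8 was higher (0.47, adjusted p = 1.18e-08) and Cd80 lower (-1.89, adjusted p = 1.08e-04), and the other 5 did not pass.

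Interferon gamma is the cytokine best known to switch on Ciita. Its own transcript, Ifng, had 0 counts in all 5 vehicle kidneys, which allows up to 3 counts in each, and at most 2 counts in any other kidney. Of 8 pathway genes tested, 4 rose under cisplatin, where 34.6% of all genes rose, and the other 4 did not pass. Those that rose were the receptor chains Ifngr1 (1.85 ± 0.11, log2, adjusted p = 9.85e-13) and Ifngr2 (1.25 ± 0.09, adjusted p = 1.17e-11), the kinase Jak2 (0.51 ± 0.05, adjusted p = 2.58e-09), and Irf1 (0.40 ± 0.10, adjusted p = 0.00103). Irf1, a transcription factor that acts on the inducible Ciita promoter, rose again when KW6002 was added (0.72 ± 0.09, adjusted p = 8.88e-07). In the same comparison Ifngr1 (-1.02), Ifngr2 (-0.67), and Jak2 (-0.34) fell. Irf1 was at 20.9 ± 1.7 CPM in vehicle, 27.5 ± 3.1 in cisplatin, and 45.2 ± 6.8 in cotreated kidneys. Socs1, a feedback inhibitor, passed in neither comparison (0.32, adjusted p = 0.384, then 0.59, adjusted p = 0.0808).

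The class I presentation genes, which serve CD8+ T cells, moved in the opposite direction under cisplatin. There 7 of 9 rose, where 34.6% of all genes rose, and the others did not pass, the peptide transporter gene Tap1 most (1.81 ± 0.13, log2, adjusted p = 1.86e-11), followed by Tapbp (0.78), Tap2 (0.60), and H2-K1 (0.55 ± 0.07, adjusted p = 6.16e-07). With KW6002 added, H2-K1 (-0.41), H2-D1 (-0.39), and B2m (-0.43) fell, and Nlrc5, the class I counterpart of Ciita, rose (0.49 ± 0.17, adjusted p = 0.0148). Nlrc5 was at 7.54 ± 1.3 CPM in vehicle and 7.30 ± 2.7 in cisplatin kidneys (-0.048, adjusted p = 0.818).

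Markers of the leukocytes that carry class II molecules were read beside the members. Dendritic cell markers fell with them under cisplatin in 5 of 7 tested (35.9% of all genes fell), with Xcr1 and Clec9a, which mark the cross-presenting subset, at 4 to 35 and 16 to 37 counts in vehicle and at most 3 and 5 counts in cisplatin kidneys. Cd209a fell by 1.88 and Flt3 by 1.12 on the log2 scale (adjusted p = 1.31e-05 and 0.00172). Itgax, the CD11c gene, had a log2 fold change of -0.22 ± 0.25 (adjusted p = 0.45). When KW6002 was added, Cd209a fell further (-1.10 ± 0.39, adjusted p = 0.0185), Zbtb46 fell (-0.21 ± 0.08, adjusted p = 0.0396), and the other 5 did not pass. These 2 of 7 were near the share of all genes that fell (27.2%). The 7 class II members rose in that comparison. The summed level of the 9 dendritic cell markers was 19.5 to 28.7 CPM in vehicle, 16.8 to 19.5 in cisplatin, and 14.9 to 18.8 in cotreated kidneys.

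Macrophage markers divided. Csf1r, the receptor for the macrophage growth factor, fell under cisplatin by 1.23 ± 0.09 (log2, adjusted p = 6.63e-11) and Adgre1, the F4/80 gene, by 0.84 ± 0.34 (adjusted p = 0.0316), whereas Cd14 (2.89 ± 0.16, adjusted p = 2.61e-13) and Cd68 (1.68 ± 0.45, adjusted p = 0.00209) rose and the other 6 of 10 did not pass. With KW6002 added, Csf1r rose by 0.23 (adjusted p = 0.0326) and Cd68 (-2.14) and Cd14 (-1.58) fell, where 28.6% of all genes rose and 27.2% fell. Their summed level was 206 to 503 CPM in vehicle, 315 to 427 in cisplatin, and 168 to 277 in cotreated kidneys. H2-Aa per Csf1r was 1.02 ± 0.25 in vehicle, 0.426 ± 0.094 in cisplatin, and 0.816 ± 0.227 in cotreated kidneys. Against Ptprc, the pan-leukocyte CD45 gene, it was 4.84 ± 0.49, 1.51 ± 0.29, and 3.83 ± 1.05, with Ptprc itself lower under cisplatin (-0.82 ± 0.17, adjusted p = 1.53e-04) and at -0.17 (adjusted p = 0.397) for the addition of KW6002. For both ratios the cisplatin kidneys (0.268 to 0.515 and 1.01 to 1.73) lay below all vehicle and all cotreated kidneys. The other pan-leukocyte genes, Coro1a, Laptm5, and Cd53, passed in neither comparison.

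B cell and T cell markers were at low levels and also fell under cisplatin, in 4 of 5 tested genes each, where 35.9% of all genes fell. Cd79a fell by 1.62 on the log2 scale (adjusted p = 0.00229) and Cd3e by 2.21 (adjusted p = 2.35e-04). With KW6002 added (28.6% of all genes higher, 27.2% lower), 1 of the 5 B cell markers passed, Cd79b, which fell (-0.51 ± 0.18, adjusted p = 0.0238), and Cd79a (0.98, adjusted p = 0.0668) did not. Of the T cell markers Trac (1.80, adjusted p = 1.29e-04) and Cd8a (1.75, adjusted p = 0.00118) rose and Cd4 fell (-1.07, adjusted p = 0.00544). Summed B cell markers were 2.18 to 4.44 CPM in vehicle, 0.906 to 1.67 in cisplatin, and 1.04 to 2.50 in cotreated kidneys, and summed T cell markers 3.89 to 6.93, 1.55 to 2.41, and 2.07 to 4.30 CPM. Of 3 NK cell markers tested, Gzma, a cytotoxic granule protease (-3.01, adjusted p = 0.00146), and Nkg7 (-2.43, adjusted p = 0.00233) fell under cisplatin (35.9% of all genes) and Eomes rose (1.00, adjusted p = 0.0172, 34.6% of all genes). Gzma was higher with KW6002 added (3.40 ± 0.71, adjusted p = 3.04e-04), at 3 to 17 against at most 3 counts per kidney. Of 4 neutrophil markers tested, only Cxcr2 passed under cisplatin, where it rose (0.88 ± 0.39, adjusted p = 0.0483, 34.6% of all genes rose). When KW6002 was added, Cxcr2 (-1.59 ± 0.39, adjusted p = 0.00135) and Csf3r (-0.83 ± 0.32, adjusted p = 0.0331) fell, as did 27.2% of all genes.

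Proximal tubule markers moved in the direction of the class II genes in both comparisons, with 6 of 6 lower under cisplatin (35.9% of all genes) and 5 of 6 higher with KW6002 added (28.6%). Their summed level was 14032 to 15073 CPM in vehicle, 1427 to 2651 in cisplatin, and 5318 to 8209 in cotreated kidneys. The markers of the distal convoluted tubule moved likewise, 2 of 2 lower and then 2 of 2 higher, at 1571 to 1630 summed CPM in vehicle, 34.6 to 80.4 in cisplatin, and 147 to 371 in cotreated kidneys. Those of the thick ascending limb were lower in 2 of 2 and then higher in 1 of 2, at 4523 to 7555, 1959 to 2274, and 2283 to 4123 CPM. Fat markers, which come with tissue around the kidney, varied without such an order, at 44.6 to 665 CPM in vehicle, 121 to 308 in cisplatin, and 3.92 to 226 in cotreated kidneys. The part of dendritic cells, macrophages, lymphocytes, tubular cells, or fat in the class II values was not tested.

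**Figure D4:**
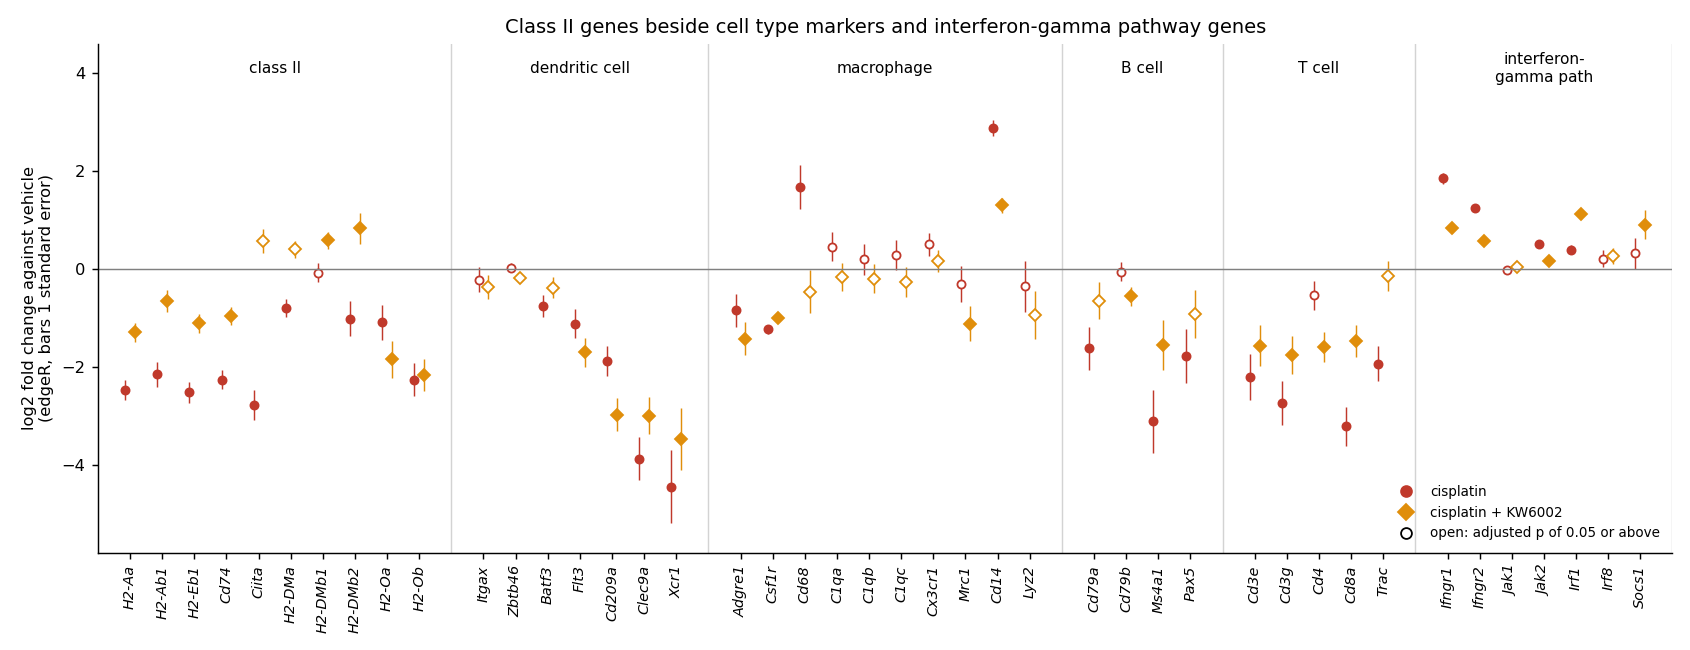
Log2 fold changes against vehicle (vertical axis, bars 1 SE) of class II genes, markers of dendritic cells, macrophages, B cells, and T cells, and interferon gamma pathway genes, for cisplatin (circles) and cisplatin plus KW6002 (diamonds), which share the vehicle kidneys; filled symbols passed an adjusted p below 0.05. The diamonds of the class II members lie above their circles, as do those of H2-DMb2, Csf1r, Trac, and Cd8a. Diamonds of Cd68, Cd14, Cd4, Cd209a, Flt3, H2-Oa, and Adgre1 lie below their circles. Of these, Flt3, H2-Oa, and Adgre1 did not pass for the addition of KW6002. Irf1 rises from 0.40 to 1.12.

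Likeness between genes was described by Pearson's r of deviations from the group means of log2 CPM over the 22 kidneys, which share libraries and depth. H2-Aa, H2-Eb1, and Cd74 followed the mean of H2-Aa, H2-Ab1, H2-Eb1, and Cd74 with r of 0.98 each and H2-Ab1 with 0.95, each being part of that mean. H2-DMa (0.80), H2-DMb1 (0.66), and Ciita (0.63) followed it less closely. Outside the group, the 10 genes most like it were Abhd3 (r = 0.93), Enpp6 (0.85), Ugt2b38 (0.82), Lat2 (0.79), Aspdh (0.79), Slc6a20b (0.79), Serpinf2 (0.79), Tha1 (0.79), Kif9 (0.78), and Slc39a5 (0.78). Of these 10, 9 fell under cisplatin, where 35.9% of all genes fell. Abhd3, Enpp6, and Ugt2b38 fell by 1.55, 1.17, and 4.18 on the log2 scale, whereas Lat2 rose (0.72, adjusted p = 6.87e-04). None of the dendritic cell, macrophage, B cell, or T cell markers listed here was among the 10. With only 10 genes taken out of 17131 tested, that absence cannot tell whether such cells carry the class II RNA. These lists do not hold every gene of such cells. The genes most like Ciita were Entpd8 (0.82), Fam151a (0.81), Abcc6 (0.80), Cyp27b1 (0.79), and Cryzl1 (0.76).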

How the data were processed

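Libraries of 22 mouse kidneys were prepared by the authors from polyadenylated RNA with a stranded kit and sequenced in single reads of 50 bases. The submitters' processing notes name STAR, HTSeq 0.6.1p1, and mm10. The deposited values are counts, whole numbers of uniquely aligned reads per gene that the authors had not normalized. Another 66 columns, which hold neither names nor values, were not used. Symbols, positions, and overlaps came from GENCODE M21, which matched 32824 of 32858 genes, and the 34 others held 0.00459% of counts.

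The counts were fitted in R 4.3.3 with edgeR 4.0.16. Its filterByExpr by group (10 counts at the median library size in at least 5 libraries, and 15 in all) kept 17131 genes with 99.9% of counts. TMM factors and 4 group means over all 22 kidneys were used, with the quasi-likelihood F test and adjustment by Benjamini and Hochberg over every gene tested. CPM and RPKM used TMM-scaled library sizes and the summed exon length. A gene passed at an adjusted p below 0.05, and 95% intervals of a fold come from its SE. A count of 0 allows up to 3 counts, worth 0.0919 CPM in vehicle replicate 1, which covers counting error only. No libraries were identical (chi-square per degree of freedom of 2.94 to 49.6 over 50 pairs within groups). The steps were tested on simulated data.

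The members and all lists (other class II chains, promoter complex, endosomal processing, turnover and co-stimulation, interferon gamma pathway, class I, and cell type markers) were chosen with earlier results of these data known. Named were the members, a fixed set of pathway and marker genes, up to 4 genes per list with the largest change that passed, and the genes most like the members. Ctsb, Ctsl, Zbtb46, Nlrc5, Dexi, Brd2, Lcn2, Havcr1, and the pan-leukocyte genes other than Ptprc were named after their values were seen. Alternatives were DESeq2 1.42.0, relative log expression factors, scaling by library size, no filter or one of 10 counts in each library, fits of the compared groups alone, a block for replicate number, a covariate for label series, mice of the 500s alone, and omission of single libraries. H2-Ea-ps was not analysed here. Values of some listed genes are not reported here.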

Additional observations from a re-analysis of the deposited data

Results flagged for a closer look

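In the cisplatin group, replicate 5 lay further from the other 4 kidneys than Dixon's 95% criterion allows for H2-Ab1 (29.0 CPM), H2-DMa (6.48 CPM), and H2-DMb1 (17.1 CPM). In all, 28 combinations of gene and group were examined, and chance alone marks about 1 in 20. The same kidney was the highest of its group for the other members as well, held the highest summed proximal tubule markers of the group (2651 against 1427 to 1792 CPM), and had the lowest level of Lcn2, a tubular injury gene (539.5 against 1309 to 1482 CPM). Havcr1, another tubular injury gene, was second highest there (587 CPM, against 505 to 745 CPM in the other 4). Whether these values are connected was not tested.

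The effect of KW6002 on the log2 scale differed between mice with and without cisplatin, by the test of that difference, for H2-Aa (1.03), H2-Ab1 (1.31), H2-Eb1 (1.22), H2-DMa (1.14), Cd74 (1.08), and Ciita (3.12). The mice without cisplatin came from both number series and those with cisplatin from one only.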

How the results depend on the processing

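Cisplatin against vehicle and cotreated against cisplatin kept their counts of members called under every alternative, within 1.5 times. Only the count for the difference between KW6002 effects moved, to 1 of 7 with mice numbered in the 500s, where the vehicle group had 2 mice. For H2-DMb1, cisplatin against vehicle changed sign with scaling by library size only (0.14), the label series as a covariate (0.11), and only the 500s (0.24), and ranged from -0.34 to 0.042 with single libraries left out (positive without vehicle replicate 1 or cisplatin replicates 3 or 4). It did not pass except without cisplatin replicate 5. H2-DMa under KW6002 alone changed sign without vehicle replicate 4 or 5, in a range of -0.030 to 0.13 with single libraries left out. The causes were not tested.

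The H2-Ab1 deficit in cotreated against vehicle kidneys lost its call with library size only (-0.50, adjusted p = 0.0604), the label series (-0.53, adjusted p = 0.0954), and the 500s (-0.42, adjusted p = 0.311). H2-DMa and Ciita gained one under 9 and 8 alternatives. Library size scaling moved the median of all genes by 0.22 (log2) in cisplatin against vehicle and by 0.16 in cotreated against vehicle. Genes called for KW6002 against vehicle numbered 3, but 102 with DESeq2, 40 with the label series, 8 in the 500s, 0 in a fit of both groups alone, and 1 to 64 with libraries left out, and no member was among the calls.

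Replicate numbers did not pair the mice: 7 of 31 same-numbered pairs had correlated deviations above 0.1 (median 0.008), and 8 of 22 libraries correlated best with their own number. With the replicate block, 6 members were lower under cisplatin and 7 higher in cotreated than in cisplatin kidneys, and of single members only H2-DMa in cotreated against vehicle kidneys changed its call (0.38, adjusted p = 0.0489). Low counts limited H2-Oa, H2-Eb2, Ifng, and the lymphocyte markers.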
